A study of Mus musculus with 4 samples.

Results

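Cox20 is an assembly factor of cytochrome c oxidase, the terminal complex of the respiratory chain, and was described together with 8 other genes in RNA of whole mouse hearts. The 9 genes were picked by name from 25044 genes in the count files, with their earlier values in these libraries known, and all 9 were found. They were Cox20, Coa3, Coa5, Cox14 and Cox17, which assemble cytochrome c oxidase, Chchd10, a protein of the mitochondrial intermembrane space, Coq9, of coenzyme Q synthesis, and the genes Hnrnpu and Ciapin1, which lie opposite Cox20 and Coq9. Hnrnpu encodes a nuclear RNA-binding protein and Ciapin1 a protein of cytosolic iron-sulfur cluster assembly, so neither is an assembly factor of the respiratory chain itself. Each gene had 1 row in the files, except Hnrnpu, which had 1 coding and 1 noncoding row.

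Hearts of cMyBP-CΔC10mut mice, which carry MYBPC3 with a 25-bp variant as a transgene, gave the dC10mut library; the strain label is C57BL/6, and the series names these mice a model of hypertrophic cardiomyopathy (HCM). Nontransgenic hearts with the same strain label gave the NTG library it is compared with. Hearts of cMyBP-C(t/t) mice labelled FvB/N, named a model of dilated cardiomyopathy (DCM), gave the tt library. Hearts of control mice labelled FvB/N gave the library called control. All mice were 12 weeks old, and each library was made from 3 hearts combined, so there was 1 library per group and no replicate. The promoter that drives the transgene is not given in the sources used here.

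Cytochrome c oxidase is built from subunits encoded in the nucleus and in mitochondrial DNA, and its assembly factors insert, stabilise or supply copper and heme to those subunits. Cox20 acts as a chaperone of the mitochondrially encoded copper-binding subunit, Cox17 carries copper in the intermembrane space, and Coa3 and Cox14 act around the newly made catalytic subunit. Heart muscle depends on oxidative phosphorylation for most of its ATP.

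The libraries held 187365 counts in dC10mut, 170543 in NTG, 186420 in tt and 176633 in control, so that 1 read was worth 5.34 to 5.86 CPM (counts scaled to a library of fixed size) and low genes are poorly resolved. Levels are given as scaled CPM, the count divided by the library total times its TMM factor. Every interval is a 95% interval of counting error alone and does not hold the variation between mice. Counts of the Xist and Tsix rows summed to 155 in dC10mut against 0 in NTG and to 173 in tt against 0 in control. A difference in sex within each pair therefore cannot be told apart from the genotype. The Tsix row alone had log2 ratios of 8.10 for dC10mut over NTG and 8.28 for tt over control. Which strand its reads came from was not tested. The strand setting of the authors' counting is not given in the sources used here. Rows with an exon opposite that of another gene made up 22.6% of the placed transcripts and held 66.2% of the counts in dC10mut, 69.1% in NTG, 65.6% in tt and 67.4% in control. A row was included here if any of its exon bases faced such an exon. Within the shared bases, reads of the gene and of its partner cannot be told apart. How many of a row's reads lie in them was not tested.

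Of the heart muscle markers, the 6 with 1 row each held between 129 and 3520 counts in every library, among them Myl2 and Actc1. The 6 with several rows, among them Myh6 and Tnnt2, held at most 3, so a 0 in such a gene does not show that it was silent. Over the 8 gene lists of the respiratory chain and its surroundings used below, 44 of 64 genes with several rows held 0 counts in all 4 libraries, against 2 of 87 genes with 1 row. Coq8a, Surf1 and Higd1a were among the genes at 0.

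The layout of the genes decides how their rows can be read. Cox20 lies on the plus strand of chromosome 1 (chr1:178319130-178322693, GRCm38) and Hnrnpu on the minus strand (chr1:178321108-178337797), with their ends running into each other over 1586 bp. Of the 4 exons of Cox20, 3 lie entirely within Hnrnpu exons, which is 392 of its 471 exon bases, or 83.2%, and 312 of its 351 coding bases. Of 9 annotated Hnrnpu transcripts, 1 (chr1:178321108-178324171) reaches these exons. The coding row of Hnrnpu, which ends short of Cox20, shares 0 bases with Cox20. The noncoding row of Hnrnpu could not be placed by its own transcript, so whether it covers Cox20 is not known. Coq9 (chr8:94838321-94854895, plus strand) and Ciapin1 (chr8:94819804-94838358, minus strand) instead start back to back and share 38 bases of their first exons, which is 2.12% of the exon bases of Coq9 and 0.872% of those of Ciapin1. Coa3 (chr11:101277968-101279114) shares 82 of 886 exon bases with Cntd1, and Chchd10 (chr10:75933130-75937747) shares 158 of 939 with Mmp11 and Gm867. Coa5 (chr1:37417084-37430103), Cox14 (chr15:99725618-99728136) and Cox17 (chr16:38346991-38352763) share none.

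**Figure D1:**
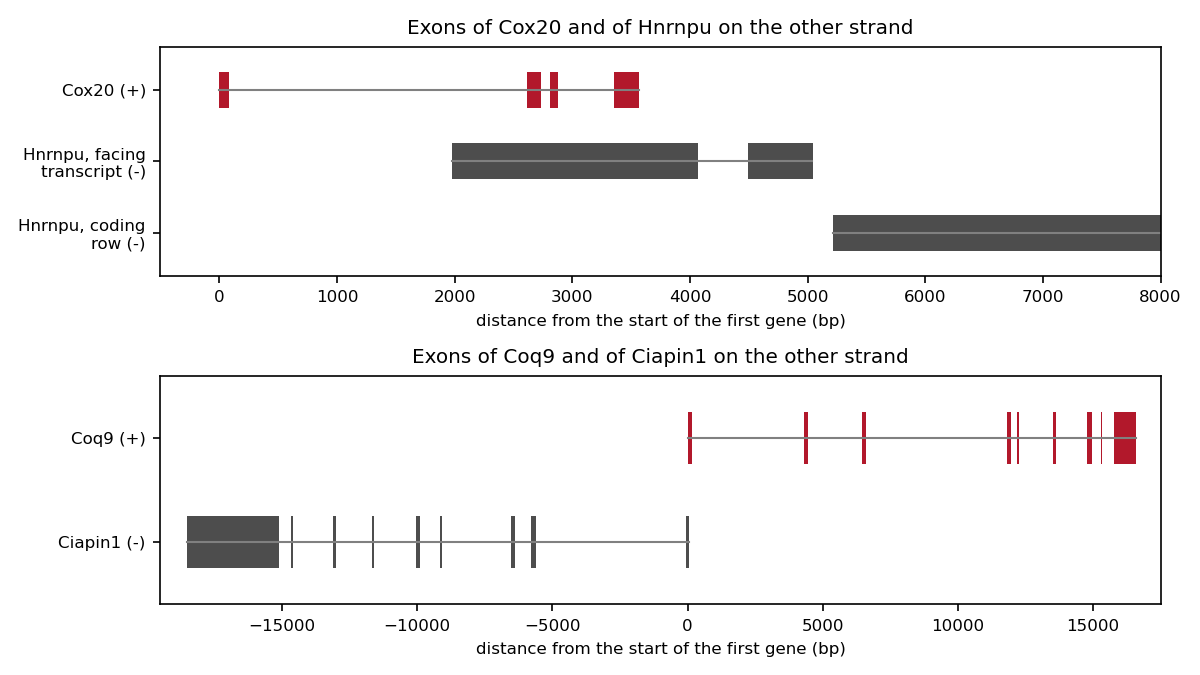
Exons (boxes) of Cox20 and of the Hnrnpu transcript and coding row beside it (upper panel), and of Coq9 and Ciapin1 (lower panel), drawn to scale against the distance in bp from the start of Cox20 or Coq9, with plus-strand genes in red and minus-strand genes in grey; the coding row of Hnrnpu runs on past the right edge. Of the 4 Cox20 exons, 3 lie opposite the Hnrnpu transcript, while Coq9 and Ciapin1 meet only at their first exons in the GENCODE annotation.

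The start regions of Cox20 and of the back-to-back pair Coq9 and Ciapin1 are shown because Cox20 had the largest difference of the 9 genes in both pairs, and because Coq9 and Ciapin1 share a start region but not a level. Each is 300 bases, from 250 before to 50 after the gene's RefSeq start (GRCm38.p6). They are written 5′ to 3′ on the gene's own strand, with capitals where a motif was found. For these genes the RefSeq start differs from the GENCODE start in the coordinates above. The windows are chr1:178318903-178319202 (plus) for Cox20, chr8:94838163-94838462 (plus) for Coq9 and chr8:94838291-94838590 (minus) for Ciapin1.
Cox20: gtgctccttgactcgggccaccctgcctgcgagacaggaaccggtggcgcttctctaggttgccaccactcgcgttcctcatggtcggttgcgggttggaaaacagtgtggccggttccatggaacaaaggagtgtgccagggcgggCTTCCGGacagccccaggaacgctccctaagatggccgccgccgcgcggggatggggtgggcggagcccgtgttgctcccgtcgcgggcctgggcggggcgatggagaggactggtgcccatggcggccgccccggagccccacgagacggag
Coq9: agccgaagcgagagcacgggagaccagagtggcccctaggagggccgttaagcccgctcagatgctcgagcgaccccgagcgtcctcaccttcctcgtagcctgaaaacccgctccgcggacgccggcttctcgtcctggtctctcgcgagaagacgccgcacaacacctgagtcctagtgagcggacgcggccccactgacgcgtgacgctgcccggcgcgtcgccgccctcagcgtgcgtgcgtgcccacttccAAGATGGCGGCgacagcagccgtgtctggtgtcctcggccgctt
Ciapin1: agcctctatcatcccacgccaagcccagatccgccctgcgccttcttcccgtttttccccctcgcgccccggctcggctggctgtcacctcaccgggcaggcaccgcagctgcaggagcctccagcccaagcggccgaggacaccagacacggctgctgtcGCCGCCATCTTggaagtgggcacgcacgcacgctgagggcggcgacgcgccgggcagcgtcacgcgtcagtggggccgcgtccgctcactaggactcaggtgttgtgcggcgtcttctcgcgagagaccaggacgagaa
The Coq9 and Ciapin1 windows overlap by 172 bases, and the capitals in them mark a single match to the YY1 motif, read from either strand. That motif occurs in 0.633% of 32851 mouse start windows of the same length. In Cox20 the capitals mark the ETS core CCGGAAG, found on the minus strand, which 8.86% of windows hold and which the Cox14 window also holds. Windows were at hand for 8 of the 9 genes, and that of Chchd10 lies at the start of the gene, upstream of the start of the transcript counted here. Both strands were searched, and 0 of the 8 windows held the NRF1 core (4.6% of all windows), the estrogen-related receptor motif CAAGGTCA (1.56%) or the TATA box TATAAA (13.6%). The CCAAT box CCAAT was in the windows of Coa3 and Cox14 (37.4% of all windows) and the SP1 box GGGGCGGGG in that of Hnrnpu (11.4%), where neighbouring matches overlap. A match is only a run of letters, and binding was not measured.

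Cox20 was the member with the lowest ratio in both mutant libraries. It held 31 counts in dC10mut against 87 in NTG, and 59 in tt against 133 in control. The level was 166 scaled CPM (112 to 235) in dC10mut against 542 (434 to 669) in NTG, and 306 (233 to 395) in tt against 731 (612 to 867) in control. Both mutant libraries thus lay below both control libraries, and the intervals of mutant and control did not overlap in either pair. The log2 ratio was -1.70 (-2.35 to -1.11), or 3.24-fold lower, for dC10mut over NTG and -1.25 (-1.72 to -0.80), or 2.37-fold lower, for tt over control. In order of level the libraries ran control, NTG, tt and dC10mut, and every neighbour in that order was apart by more than counting error. The step between the control libraries was the smallest (control over NTG log2 ratio 0.43, 0.03 to 0.84). The ratios of the pairs differed by -0.45 (-1.18 to 0.29), an interval that spans 0.

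Hnrnpu, the gene on the other strand, differed little over its summed rows in the same libraries. It held 1512 counts in dC10mut against 1224 in NTG, and 1395 in tt against 1432 in control. Of these, between 99.4% and 99.9% per library came from the noncoding row, and the coding row held 2 and 5 counts in dC10mut and NTG and 3 and 8 in tt and control. The log2 ratio of the summed rows was 0.08 (-0.03 to 0.19) for dC10mut over NTG and -0.12 (-0.23 to -0.01) for tt over control, and no library was apart from its neighbour in the order of levels. The ratios of the pairs differed by 0.20 (0.05 to 0.35), a small difference whose interval excludes 0. With scaling factors from genes that have no opposite-strand exon, an alternative added after seeing the data, the ratio of dC10mut over NTG was -0.03, so its sign depends on the scaling. The coding row alone had log2 ratios of -1.33 (-4.94 to 1.07) and -1.35 (-4.05 to 0.56) on its few counts. There were 48.8 Hnrnpu counts for each Cox20 count in dC10mut against 14.1 in NTG, and 23.6 in tt against 10.8 in control. How much of the Cox20 row, or of the noncoding Hnrnpu row, came from transcripts of the other strand was not tested, since the files hold no strand. The ratios above are thus those of the rows and may not be those of the genes they are named for.

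**Figure D2:**
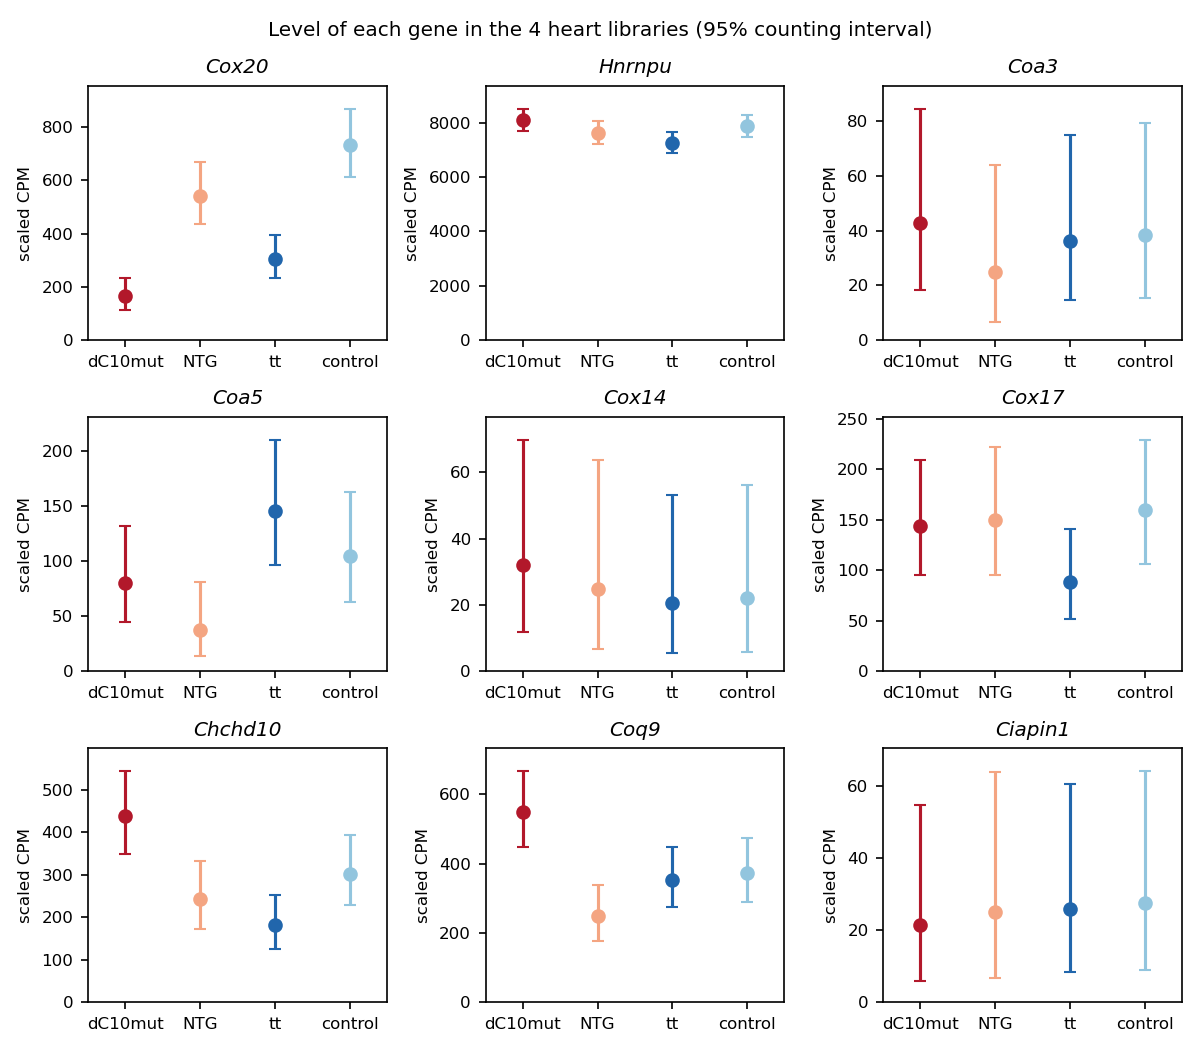
Level of each gene in scaled CPM (vertical axes, from 0) in the libraries dC10mut, NTG, tt and control (1 library each, made from 3 hearts), with points for the value and bars for its exact Poisson 95% counting interval. Cox20 is lower in dC10mut than in NTG and in tt than in control, Hnrnpu stays between 7244 and 8074, and Coq9 stands highest in dC10mut at 550.01.

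Coq9 binds lipid and supports the hydroxylation step of coenzyme Q synthesis. It held 103 counts in dC10mut against 40 in NTG, and 68 in tt against 68 in control. The level was 550.01 scaled CPM (449 to 667) in dC10mut against 249 (178 to 340) in NTG, and 353 (274 to 448) in tt against 374 (290.3 to 474) in control. Only dC10mut stood apart from its neighbour in the order of levels, by a log2 ratio of 0.55 (0.10 to 1.02) over control, while control, tt and NTG followed without steps larger than counting error. The log2 ratio was 1.13 (0.60 to 1.71), or 2.19-fold higher, for dC10mut over NTG and -0.08 (-0.59 to 0.42) for tt over control. Between the control libraries, control over NTG, it was 0.58 (-0.0002 to 1.19), an interval that barely spans equality. The ratio of the HCM pair exceeded that of the DCM pair by 1.21 (0.50 to 1.93). Ciapin1, which starts back to back with Coq9, held 4 counts in dC10mut and 4 in NTG, and 5 in tt and 5 in control (log2 ratios -0.20, -2.65 to 2.2, and -0.07, -2.2 to 2.04), and a difference was not detectable at this depth. Per length of exon, Coq9 stood at between 139 and 307 scaled CPM per kb, and Ciapin1 at between 4.90 and 6.31.

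Chchd10, a small protein with cysteine pairs that is associated with the inner membrane's cristae, moved apart between the models. It held 82 counts in dC10mut against 39 in NTG, and 35 in tt against 55 in control. The level was 438 scaled CPM (348 to 544) in dC10mut against 243 (173 to 332) in NTG, and 182 (127 to 253) in tt against 302 (228 to 394) in control. The intervals did not overlap in the HCM pair and overlapped in the DCM pair. The log2 ratio was 0.84 (0.28 to 1.44) for dC10mut over NTG and -0.73 (-1.39 to -0.10) for tt over control, both within 2-fold and both with an interval that excludes equality. The difference between the ratios was 1.57 (0.75 to 2.38), larger than that of Coq9. The dC10mut library lay above control by more than counting error, while control, NTG and tt were not apart from their neighbours. Mmp11 and Gm867, which face 158 of its 939 exon bases, held 0 counts in every library.

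The other assembly factors of cytochrome c oxidase had few counts. Cox17, the copper carrier, held 27 counts in dC10mut against 24 in NTG, and 17 in tt against 29 in control (log2 ratios -0.05, -0.90 to 0.80, and -0.83, -1.81 to 0.06). The ratio of Cox17 in the HCM pair is so close to 0 that its sign turns with library totals as the scale (0.03). Coa5, an early-acting assembly factor, held 15 counts in dC10mut against 6 in NTG, and 28 in tt against 19 in control. Its intervals span equality in both pairs (log2 ratios 1.04, -0.35 to 2.75, and 0.47, -0.41 to 1.40), but the control libraries differed in it, with 19 counts in control against 6 in NTG (log2 ratio 1.41, 0.10 to 3.09). Coa3 held 8 and 4 counts in dC10mut and NTG and 7 and 7 in tt and control. Cox14 held 6 and 4 in dC10mut and NTG and 4 and 4 in tt and control. The intervals of both genes span equality in every pair (Coa3 in the HCM pair 0.71, -1.12 to 2.96; Cox14 0.33, -1.71 to 2.63). Cntd1, the partner of Coa3, held many more counts, 420 in dC10mut against 536 in NTG and 377 in tt against 673 in control (log2 ratios -0.57, -0.76 to -0.39, and -0.92, -1.10 to -0.73). Cntd1 also has exon bases opposite Becn1.

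Compared per length, which sets a short gene such as Cox20 (471 exon bases) beside a long one such as Coa5 (3863 exon bases), the members fell into separate ranges. In NTG, Cox20 had 1152 scaled CPM per kb, Cox17 337, Chchd10 259 and Coq9 139. Cox14 (34.5), Coa3 (28.1), Coa5 (9.68), Ciapin1 (5.72) and the coding row of Hnrnpu (4.08) were lower. Hnrnpu has several rows, as the heart genes near 0 do, and how the authors counted reads shared between rows is not given, so its place in this order is uncertain. In dC10mut the order at the top was Chchd10 with 466, Cox20 with 351, Cox17 with 325 and Coq9 with 307. The first place of Cox20 among these genes was thus held in the libraries NTG, tt (650.4 against 199 for Cox17) and control (1552 against 359 for Cox17), and not in dC10mut. Of the 471 exon bases of Cox20, 392 face Hnrnpu exons, while Cox17 shares none. The place of Cox20 is therefore that of its row, whose reads over these 392 bases cannot be told apart from those of Hnrnpu. The noncoding row of Hnrnpu has no length in the annotation used and is left out.

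A gene counted as different when its log2 ratio was at least 1 in size with a counting interval that leaves out equality, and at least 1 CPM was seen in either library. In the HCM pair 2 of the 9 genes met this rule, Coq9 higher and Cox20 lower, where 4.33% of 8033 genes did (1.81% higher, 2.53% lower). In the DCM pair 1 of 9 did, Cox20 lower, where 4.28% of 8248 genes did (2.7% higher and 1.58% lower). Between the control libraries 1 of 9 did, Coa5 higher in control, where 3.09% of 8152 genes did in either direction and 1.4% were higher. Shares were larger among genes with at least 10 counts in a library of the pair, as all these called members had. In the HCM pair 117 of 2114 such genes were higher and 159 lower, and in the DCM pair 180 of 2253 were higher and 108 lower. Between the control libraries 82 of 2069 were higher and 92 lower. A difference of at least 1 between the ratios of the pairs, with an interval excluding 0, was met by 2 of 9, Chchd10 and Coq9, where 5.8% of 6937 genes met it and 2.49% with the larger ratio in the HCM pair. The median log2 ratio of the 9 genes was 0.33 for dC10mut over NTG and -0.08 for tt over control, beside -0.11 and -0.05 over all genes with a count. Over all genes with at least 10 counts in a library of the pair, the medians were 0.008 and -0.004. Since the genes were chosen with these values known, the counts are a description and carry no test.

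Cox20 is 1 of many genes with an opposite-strand exon: in dC10mut, 4.26% of 2654 such genes were lower and 1.43% higher, against 1.67% and 1.99% of 5379 genes without one. In the DCM pair 2.12% of 2689 such genes were lower in tt and 4.02% higher, against 1.31% and 2.07% of 5559 genes without one. The part of this in the ratio of Cox20 was not tested. Genes lower in both pairs numbered 15, or 0.216% of 6937 genes, and Cox20 had the most counts of them. Of the 15, 9 have an opposite-strand exon. With scaling factors from genes without such an exon, Cox20 had ratios of -1.80 for dC10mut over NTG and -1.27 for tt over control, against medians of all genes of -0.22 and -0.07.

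**Figure D3:**
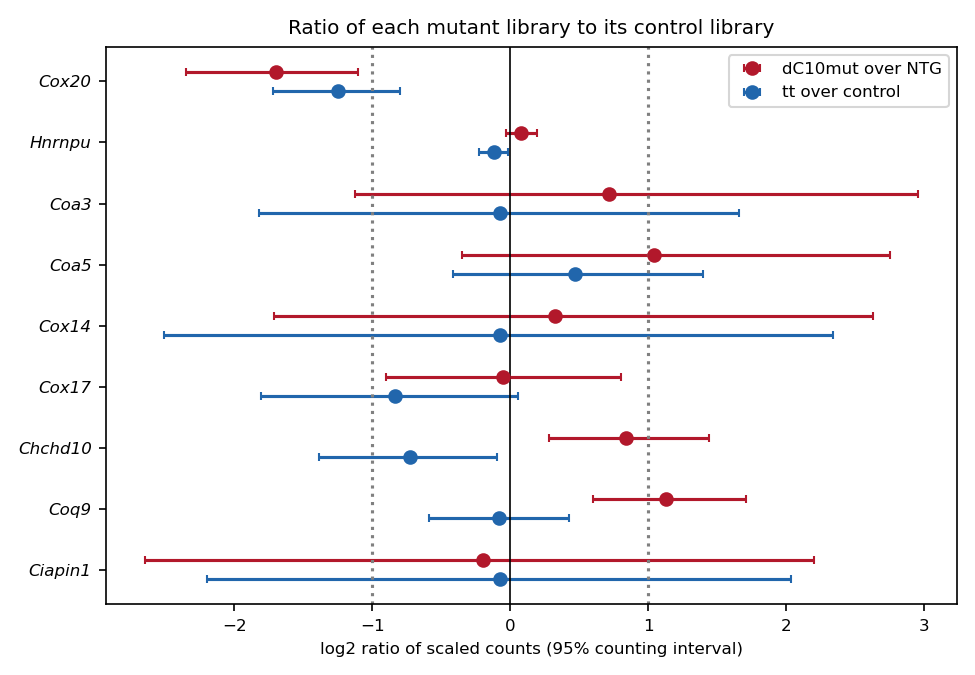
Log2 ratio of scaled counts for each gene (points) with its exact 95% counting interval (bars), for dC10mut over NTG in red and tt over control in blue; dotted lines mark 2-fold. Cox20 lies below the lower line in both pairs, Coq9 above the upper line in the HCM pair alone, and Coa3, Cox14 and Ciapin1 have intervals several units wide.

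**Figure D4:**
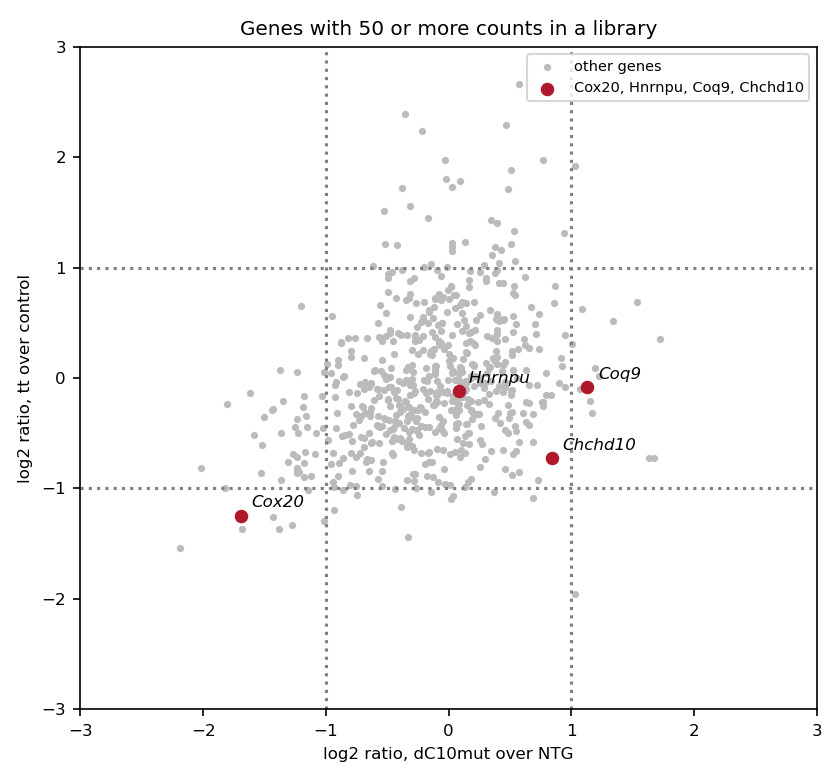
Log2 ratio in the HCM pair (horizontal axis) against that in the DCM pair (vertical axis) for the 633 genes with 50 or more counts in a library, of which 5 lie outside the axes; dotted lines mark 2-fold and red points the members with that many counts. Cox20 lies at the lower left (-1.70 and -1.25), Coq9 to the right near 0 on the vertical axis (1.13 and -0.08), and Hnrnpu near the centre.

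The genes whose pattern over the 4 libraries was nearest to that of Cox20, among 1523 other genes with 50 or more counts in all, were found by the distance between log2 levels centred on each gene. They were Pdk4 (distance 0.17), Stat6 (0.20), Srsf6 (0.20), Gm13262 (0.45) and Rsrp1 (0.46). Pdk4, the kinase that inhibits pyruvate dehydrogenase, held 28 counts in dC10mut against 78 in NTG, and 46 in tt against 113 in control. Srsf6, a splicing factor of the SR family, held 6 against 18 and 11 against 23 counts in the same pairs. Stat6 faces Nab2 and Gm13262 faces Taf3 on the other strand, while Pdk4, Srsf6 and Rsrp1 have no opposite-strand exon. Nearest to Coq9 were Cox8b (0.02), Got1 (0.11), Arfgef1 (0.14), Ndufb5 (0.16) and Mgst3 (0.16). Cox8b, a heart and muscle subunit of cytochrome c oxidase, held 96 counts in dC10mut against 37 in NTG, and 63 in tt against 62 in control. Ndufb5, a subunit of complex I, held 104 against 46 and 69 against 69 in the same pairs. With 4 libraries these distances rank likeness and test nothing.

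Few of the other assembly factors of cytochrome c oxidase met the rule for a difference, but many had too few counts to show one. For dC10mut over NTG, Higd2a (9 counts against 3) had a log2 ratio of 1.24 (-0.64 to 3.88). Cox15 (6 against 12) had a ratio of -1.15 (-2.92 to 0.30). Both were past 2-fold in size with an interval that spans equality, so missing the rule does not show a lack of change. Of 35 assembly factors of cytochrome c oxidase, 34 were in the files and 26 held a count in the HCM pair. Of these, 0 were higher in dC10mut and 1, Cox20, was lower, with a median log2 ratio of 0.15. In the DCM pair 25 held a count, of which 1 was higher in tt and 2 were lower, with a median of -0.08. The higher one was Coa8 (9 counts in tt against 1 in control, opposite Gm15996), and beside Cox20 the lower one was Oxa1l, the membrane insertase (11 against 25, opposite Slc7a7). Cox11, which helps insert copper, had the next most counts after Cox20 and held 54 counts in dC10mut against 54 in NTG, and 63 in tt against 72 in control. Cmc1 held 33 against 36 and 30 against 41 counts. Of the 15 subunits of the complex, 14 held a count in the HCM pair, with a median of 0.59, 1 higher (Cox8b) and 0 lower; all 15 did in the DCM pair, with a median of -0.33, 0 higher and 0 lower. Of the 10 subunits with at least 10 counts, 9 had a positive ratio in the HCM pair and 9 a negative one in the DCM pair, while of the assembly factors with at least 10 counts 3 of 11 and 3 of 10 had a positive one. Over all genes with at least 10 counts, 50.3% had a positive ratio in the HCM pair, against 49.8% for tt over control.

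The other lists held few genes past the rule. Of 18 assembly factors of complex I, 13 held a count in the HCM pair and 1 was higher, Ndufaf4 (24 counts in dC10mut against 9 in NTG), and in the DCM pair 0 of 14 differed. Of 16 assembly factors of complexes II, III and V, 9 held a count in each pair and 0 differed in either. Tmem242, of ATP synthase assembly, had the most counts of them, 19 against 11 and 18 against 11. In coenzyme Q synthesis, 10 of 15 genes held a count in each pair, with Coq9 the 1 higher in the HCM pair and 0 different in the DCM pair. All 5 of them with at least 10 counts in the HCM pair had a positive ratio (median 0.41), among them Coq10a (69 counts in dC10mut against 51 in NTG) and Coq5 (31 against 23). Of all genes with that many counts, 50.3% had a positive ratio in that pair. In the list of twin-cysteine proteins and the cristae complex, Micos13 was higher in dC10mut (24 against 8 counts) and Gfer, the oxidase of intermembrane import, in tt (17 against 6), of 12 and 13 genes with a count.

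Among the 11 genes of cytosolic iron-sulfur assembly, the group of Ciapin1, 7 held a count in each pair. Ciao1 was lower in dC10mut (32 counts against 65 in NTG, log2 ratio -1.23, -1.90 to -0.61), and in the DCM pair 0 differed. Ciao1, Ciao3 and Mms19, the 3 genes with at least 10 counts, had negative ratios in both pairs. Mms19 held 103 counts in dC10mut against 120 in NTG, and 126 in tt against 173 in control. Of 24 genes of nuclear RNA-binding proteins like Hnrnpu, 11 and 8 held a count in the pairs and 0 differed in either. After Hnrnpu, Hnrnpul2 had 23 counts in dC10mut against 22 in NTG and 23 in tt against 24 in control.

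**Figure D5:**
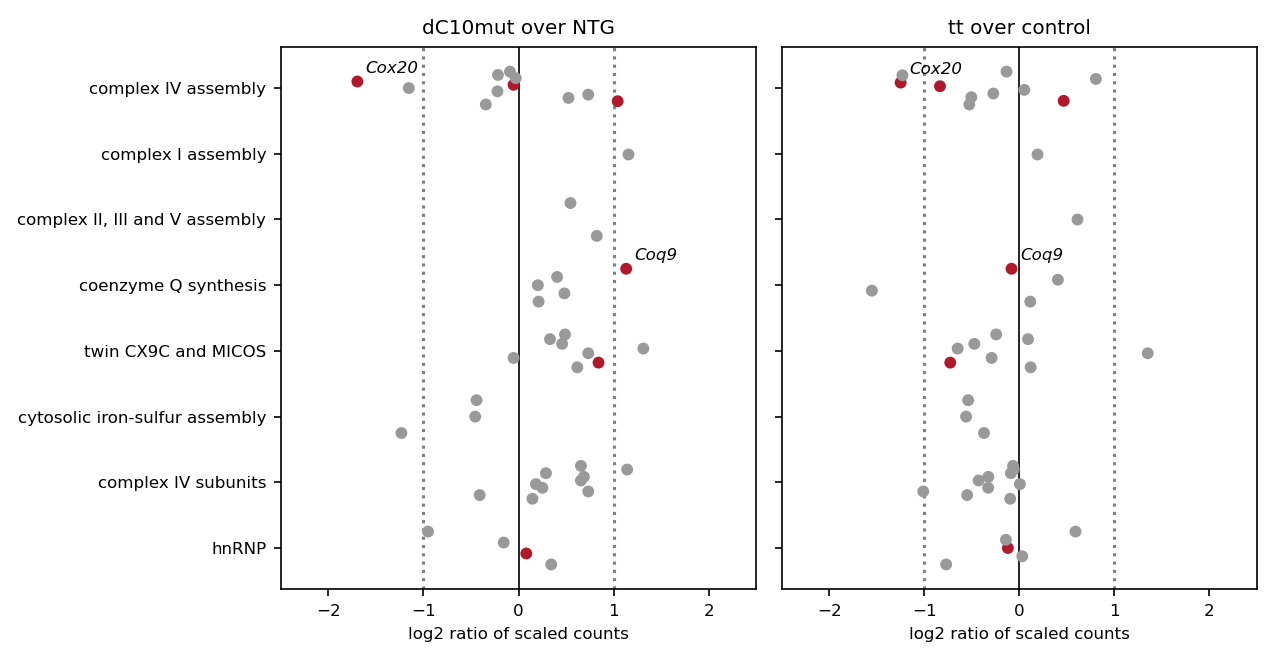
Log2 ratio of scaled counts for genes of each list with at least 10 counts in a library of the pair, for dC10mut over NTG (left) and tt over control (right); red points are the genes described here, grey points the others, and dotted lines mark 2-fold. Cox20 lies to the left in both panels, and the subunits of complex IV lie mostly right of 0 in the HCM pair and left of 0 in the DCM pair.

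Summed markers of cell types differed too, and their part in the results above was not tested; in whole hearts, fewer cells of a type and less RNA per cell cannot be told apart. The 12 heart muscle markers summed to 37102 scaled CPM in dC10mut against 30644 in NTG, and 27292 in tt against 29176 in control. The 10 endothelial markers summed to 1276 in dC10mut against 1446 in NTG, and 737 in tt against 1528 in control, with Pecam1, Tek, Egfl7 and Emcn at 0 throughout. Fabp4 held most of these counts (184 in dC10mut against 154 in NTG, 102 in tt against 203 in control), and Fabp4 and Kdr (11 counts in tt against 27 in control) were lower in tt by the 2-fold rule. Of the 3 with at least 10 counts in the HCM pair, Fabp4 had a positive ratio. Cdh5 (24 counts in dC10mut against 39 in NTG) and Kdr (18 against 23) had negative ones. The 8 fibroblast markers summed to 422 against 405 in the HCM pair and 296 against 495 in the DCM pair. Its members did not move together: Dpt was higher in dC10mut by the 2-fold rule (38 counts against 14 in NTG), while Col1a1 had 5 against 8, Col1a2 2 against 7 and Col3a1 18 against 23, and in the DCM pair Col1a2 was lower in tt (2 against 11). The 9 macrophage markers summed to 294 against 118 and 98.7 against 280.4, with Adgre1 and Ptprc at 0. Within this list Lyz2 was higher in dC10mut (28 counts against 6 in NTG) and lower in tt (5 against 28 in control). The 8 markers of smooth muscle and pericytes summed to 951 against 636 and 675 against 896, with Myh11, Pdgfrb and Kcnj8 at 0. Acta2 was higher in dC10mut by the 2-fold rule (24 counts against 6 in NTG), while Rgs5 held 120 against 65 and Tagln 26 against 28. All 6 adipocyte markers, 6 of 8 skeletal muscle markers and 4 of 5 atrial markers were at 0 in every library. The exceptions were Ckm and Mylpf of skeletal muscle, of which heart muscle also uses Ckm, and the atrial marker Nppa (22 counts in dC10mut against 9 in NTG, and 16 in tt against 60 in control).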

How the data were processed

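RNA of whole hearts was sequenced in 4 poly(A) libraries, 1 per group, prepared with a strand-specific kit, per the labels' protocols. STAR, HTSeq and the mouse build mm10 were used, per the submitters' processing notes; the sources used here give no version, counting mode or strand setting. The authors deposited whole-number counts of reads for each RefSeq transcript, not normalized. Counts were summed per symbol with the RefSeq gene table (41252 of 41449 transcripts matched; 197 stand for themselves) and 25044 genes resulted. Exons came from GENCODE M21 (GRCm38), which placed 40998 transcripts, 35347 by their own accession and the rest by the exons of their gene.

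Scaling used TMM factors from edgeR 4.0.16 (0.999 for dC10mut, 0.940 for NTG, 1.03 for tt and 1.03 for control). For log2 ratios, 0.5 was added to each count in proportion to library size, with exact Clopper-Pearson conditional binomial 95% intervals. Levels have exact Poisson intervals, and the difference between pairs a normal approximation. PCR copies are not independent molecules, so intervals cover counting error only, and no p-values are given with 1 library per group. A gene counted as different at 2-fold or more, with an interval excluding equality and 1 CPM in a library. The 9 genes, 8 pathway lists and 8 cell type lists were chosen with earlier results of these data known. Genes named were the 9, their opposite-strand genes, the 5 of nearest pattern to Cox20 and Coq9, and from each pathway list those past the rule or otherwise up to 3 with the most counts. Alternatives were library totals, DESeq2 1.42.0 size factors, a prior count of 2, a minimum of 10 counts, transcripts without an opposite-strand exon, and, added after seeing the data, TMM factors from genes without one.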

Additional observations from a re-analysis of the deposited data

Results flagged for a closer look

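Chchd10 differed between the models: its log2 ratio in the HCM pair (dC10mut over NTG) exceeded that in the DCM pair (tt over control) by 1.57, with a 95% counting interval of 0.75 to 2.38. It held 82 counts in dC10mut against 39 in NTG, and 35 in tt against 55 in control. Coq9 also differed between the models, by 1.21 (0.50 to 1.93), on 103 counts in dC10mut against 40 in NTG, and 68 in tt against 68 in control. Both intervals cover counting error only, and of 6937 genes 5.8% met the same rule, a difference of at least 1 with an interval excluding 0, and 2.49% in the same direction.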

How the results depend on the processing

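Under library totals, DESeq2 size factors, a prior count of 2, a minimum of 10 counts and the added scaling on genes without an opposite-strand exon, the numbers of the 9 genes past 2-fold stayed within 1.5 times of those reported in each comparison. With only transcripts without an opposite-strand exon, the number past 2-fold was 0 for dC10mut over NTG, tt over control and the difference between pairs. In the GENCODE annotation Cox20, Coq9, Chchd10, Coa3 and Ciapin1 have no such transcript, so 4 genes remain. Cox20 kept a negative ratio in both pairs under the scalings tried, between -1.80 and -1.61 in the HCM pair and between -1.27 and -1.23 in the DCM pair, and Coq9 stayed between 1.02 and 1.22 in the HCM pair. Scaling moved the median log2 ratio of all genes from -0.11 to -0.22 in dC10mut over NTG (the added scaling) and from -0.12 to 0.01 in control over NTG (library totals). With the scaling kept, the median was -0.00 in dC10mut over NTG over the 5450 genes with counts from a transcript without an opposite-strand exon. The genes past 2-fold were 145 higher and 203 lower in dC10mut as reported, and 108 and 247 with the added scaling or 107 and 93 over transcripts without an opposite-strand exon. For control over NTG they were 114 and 138 as reported, 155 and 84 with library totals and 83 and 157 with the added scaling. A count of 0 allows up to 3 counts, or between 15.6 and 18.7 scaled CPM. No paired analysis was possible because each group has 1 library, and for the same reason no library could be left out.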

Other observations

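Among the respiratory chain lists, the control libraries themselves differed in a few genes beside Coa5, where 3.09% of 8152 genes met the 2-fold rule between them. These genes belong to lists compared above, and Coq5 is among the coenzyme Q genes with a positive ratio in the HCM pair. Coa6, a copper-related assembly factor of cytochrome c oxidase that faces Tarbp1, held 27 counts in control against 7 in NTG (log2 ratio 1.70, 0.53 to 3.21). Coq5, a methyltransferase of coenzyme Q synthesis, held 12 counts in control against 23 in NTG (log2 ratio -1.09, -2.26 to -0.05). Coa7 held 0 counts in control against 6 in NTG. These libraries differ in their strain label, and no replicate exists for either.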
